A study of Brassica oleracea with 8 samples.

Results

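The genes described here were counted in every library of kale and were at or near 0 counts in every library of cabbage and of the rapid cycling line TO1000. A gene was taken as a member when its identifier started with Bo, each of the 3 kale libraries held at least 10 reads on it, and none of the 5 cabbage and TO1000 libraries held more than 2. Of the 59225 Bo identifiers 236 were members, which is 0.398% of them, and 5 identifiers named in the rule were left out beforehand, of which 4 met both limits. The members were selected on these counts, so the contrast of kale with the other morphotypes is described for them and not tested. As the limits are raw counts, they were not equally strict in every library. The 2 counts allowed outside kale were worth between 0.273 counts per 1000000 counted reads (CPM) in TO1000 replicate 2 and 0.724 CPM in cabbage replicate 1, and the 10 counts asked of kale were worth 1.37, 1.79 and 2.39 CPM in kale replicates 1 to 3.

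RNA was taken from the top of the shoot, that is the upper stem with its young leaves and its apical and side meristems, of plants 24 days after sowing, and each library pooled 8 plants. Kale (var. viridis in the labels, Red Winter in the paper) had 3 libraries, cabbage (var. sabadua in the labels, var. capitata in the paper) 2 and TO1000 (var. alboglabra) 3. The paper set aside a further cabbage replicate that gave few reads, of low quality. By the paper the morphotypes differed in their number of fully expanded leaves at sampling, with the lowest range in cabbage, so equal age was not equal stage. All plants were untreated, grew in the same chamber with a 10-hour day, and came from a single accession per morphotype, so a morphotype cannot be told apart from its accession. Counts on genes ran from 3016197 to 7539991 per library, the lowest in cabbage replicate 1 and the highest in kale replicate 1. The separate libraries are replicates of the same accession, so their spread measures variation between pools of plants and preparations.

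*Brassica oleracea* descends from a whole-genome triplication, so many of its genes have close copies elsewhere in the genome, and reads from such copies can be hard to place. Kale, cabbage and rapid cycling lines belong to the same species but differ in which genes they carry as well as in which they use, and they differ in leaf form, head formation and flowering time. All reads were mapped to the genome of TO1000, so a read was counted only on a gene annotated there. A gene of the list is thus annotated in TO1000 and had reads in kale but hardly any in the TO1000 shoot itself. In whole tissue, fewer cells of a type and less RNA per cell cannot be told apart. The identifiers carry no gene names in the files, and none of them appeared in the RefSeq gene table used here, so most members are given by identifier, and markers of the tissue could not be checked.

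Over all members the kale libraries held 14691, 11035 and 8291 reads, or 1948.4, 1710.8 and 1748.4 per 1000000 counted reads. Cabbage replicates 1 and 2 held 60 and 54 reads on the same genes, and TO1000 replicates 1 to 3 held 85, 135 and 146. The limit of 2 counts would have allowed 2360 reads in the 5 libraries outside kale together, and 480 were found. Per 1000000 counted reads they came to 19.9 and 9.43 in cabbage and to 16.0, 19.7 and 23.0 in TO1000. The share was thus similar in cabbage replicate 1 and in TO1000, and lower only in cabbage replicate 2.

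Most members were counted at a low level in kale. The mean of the kale libraries ran from 1.98 to 85.6 CPM with a median of 5.36 CPM and quartiles of 3.44 and 9.65 CPM, while the median over all 28126 genes tested was 9.33 CPM. The median member stood above 36.4% of tested genes. The mean was above 10 CPM in 57 members, between 5 and 10 CPM in 71 and under 5 CPM in 108. The 10 members with most reads held 7790 of the 34017 kale reads on the list, or 22.9%. CPM is not divided by gene length, so the order of members is an order of reads and not of transcript abundance. Counting reads takes in PCR copies, since molecules carried no identifiers. The intervals of ratios between kale and the other libraries treat reads as independent. They leave out PCR copies and the spread between libraries, and so may be too narrow. The Wilson intervals of shares and rates are over genes and not over reads.

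**Figure D1:**
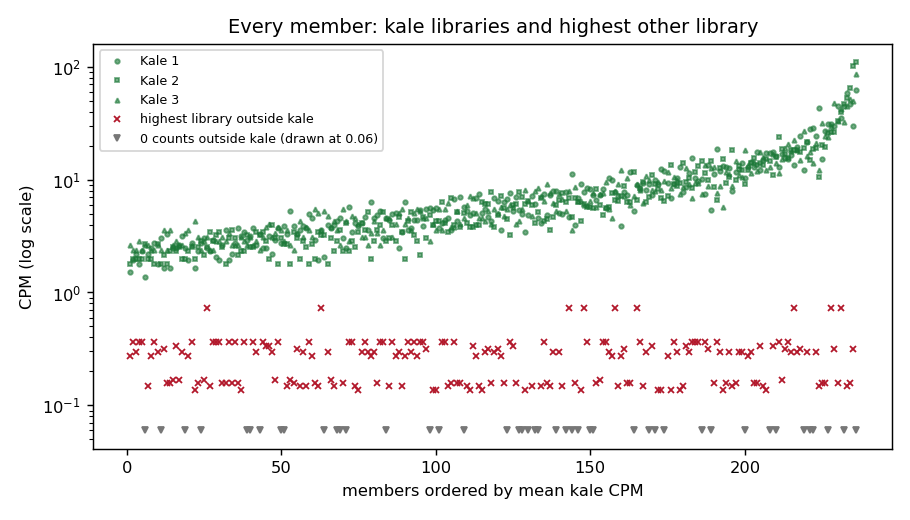
Every member is placed on the x axis in the order of its mean kale level, and the y axis gives CPM on a log scale, with green points for the 3 kale libraries, a cross for the highest of the 5 cabbage and TO1000 libraries and a grey triangle, drawn at an arbitrary 0.06, for members at 0 in all of them. The mean of the kale points climbs from 1.98 to 85.6 CPM while no cross lies above 0.724 CPM, in bands set by counts of 1 and 2 in libraries of different size.

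The plot of every member shows how the distance between kale and the rest widened with the kale level, because the rule holds the other side under a fixed count. The 10 members whose lowest kale library was highest were Bo6g040070, Bo6g015650, Bo2g108850, Bo01006s010, Bo5g076370, Bo1g144080, Bo1g122780, Bo8g011060, Bo6g112520 and Bo7g106900. Bo6g040070 on chromosome C6 had 451, 609 and 358 reads in kale replicates 1 to 3 and 0 reads in all 5 other libraries, at a kale level of 85.6 ± 23.6 CPM (SD, n = 3). Taking 3 reads over the 5 libraries as the limit that a count of 0 allows, the kale level exceeded the others at least 809.8-fold. The next highest mean, that of Bo1g122780, was 60.6 CPM.

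Bo6g015650, also on C6, had 341, 360 and 215 reads in kale, or 54.3 ± 9.18 CPM (SD, n = 3), and a lone read in TO1000 replicate 1. Bo2g108850 on C2 had 422, 292 and 189 reads in kale, or 51.9 ± 6.43 CPM, and a lone read in TO1000 replicate 3. Their kale libraries lay within a narrow span, and cabbage had 0 reads on either gene. Bo01006s010, on a scaffold that is not placed on a chromosome, had 255, 223 and 178 reads in kale, or 39.2 ± 3.81 CPM, with 2 reads in cabbage replicate 1 and a single read in TO1000 replicate 2. Bo5g076370 on C5 had 329, 184 and 139 reads, or 37.2 ± 7.0 CPM, with a read each in TO1000 replicates 1 and 2. For all of these every kale library exceeded every other library by a wide margin, as the rule requires.

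Bo1g144080 on C1 had 324, 261 and 135 reads in kale, or 41.2 ± 7.82 CPM (SD, n = 3), and Bo7g106900 on C7 had 227, 144 and 100 reads, or 27.0 ± 3.78 CPM. Both were at 0 in all 5 cabbage and TO1000 libraries, which puts kale at least 411.2-fold and at least 269.0-fold higher. Bo8g011060 on C8 had 224, 147 and 124 reads in kale, or 28.9 ± 2.3 CPM, and was the member of these 10 with most libraries above 0 outside kale, with 2 and 1 reads in cabbage replicates 1 and 2 and 1, 0 and 1 in TO1000. Bo6g112520 on C6 had 216, 147 and 200 reads, or 34.6 ± 11.5 CPM, with 0 reads in cabbage and 2, 2 and 1 in TO1000.

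**Figure D2:**
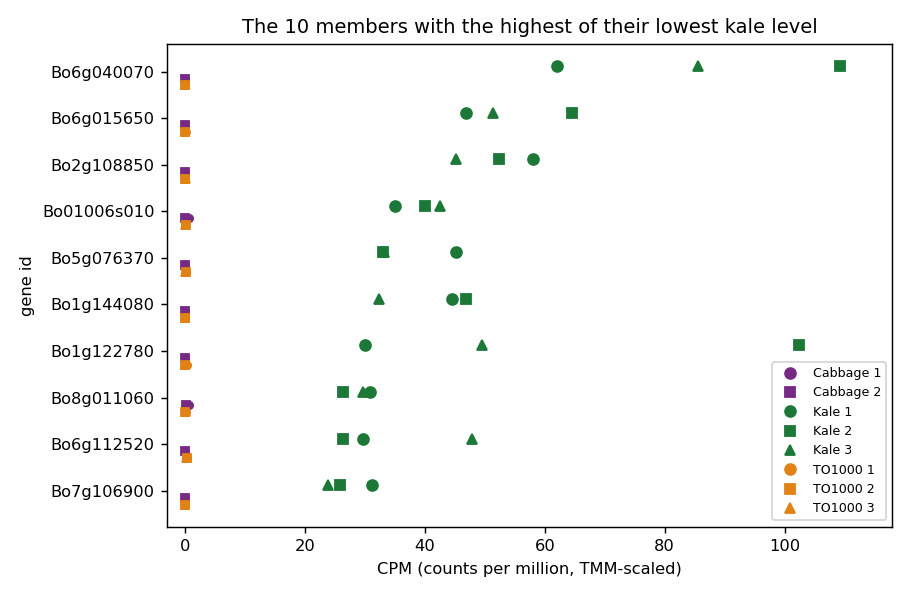
The x axis gives the TMM-scaled level in CPM of each of the 8 libraries for the 10 members whose lowest kale library was highest, with kale in green, cabbage in purple and TO1000 in orange and a symbol for each replicate. Cabbage and TO1000 lie on 0 at this scale, and kale replicate 2 stands far to the right of the other kale libraries in Bo1g122780, at 102 CPM against 30.0 and 49.5 CPM.

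The kale libraries resembled each other on most members. The coefficient of variation over the 3 kale libraries had a median of 22.2% and an upper quartile of 33.0% over all members. The corresponding values over 6491 tested genes that are not members were 22.7% and 32.5%. Those genes had kale means between the member quartiles of 3.44 and 9.65 CPM and at least 10 reads in every kale library. They thus cover a narrower range of level than the members. The highest kale library was 1.53 times the lowest in the median member, with quartiles of 1.33 and 1.85. The lowest count was in kale replicate 3, the smallest kale library, for 151 members, in kale replicate 2 for 69 and in kale replicate 1 for 16. The highest CPM after scaling for library size was in kale replicate 1 for 39.4% of members, replicate 2 for 22.5% and replicate 3 for 38.1%. Among the 6491 other genes described above these shares were 33.3%, 29.9% and 36.8%. The difference between these shares was not tested.

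A few members differed widely among the kale libraries themselves. Bo2g140520 on C2 had the widest spread, with 313, 59 and 51 reads in kale replicates 1 to 3, or 43.0, 10.6 and 12.2 CPM, a ratio of 4.07 between highest and lowest. Bo1g122780 had 218, 571 and 207 reads, or 30.0, 102 and 49.5 CPM, a ratio of 3.42, and 2 reads outside kale, both in TO1000 replicate 1. Bo2g159550 had 46, 11 and 17 reads, or 4.12 ± 2.18 CPM (SD, n = 3), a ratio of 3.21, with 0, 2 and 1 reads in TO1000. The high library was replicate 1 in Bo2g140520 and Bo2g159550 and replicate 2 in Bo1g122780, so no single library accounted for these spreads.

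Outside kale the reads on members were few and unevenly placed. No read was found in any of the 5 libraries for 44 members, 1 to 3 reads in all for 156 and at least 4 for 36, with a highest sum of 7. Cabbage was at 0 for 159 members and TO1000 for 58. Reads were found in TO1000 but not in cabbage for 115 members, in cabbage but not in TO1000 for 14 and in both for 63. In all, 366 of the reads outside kale were in TO1000 and 114 in cabbage. Cabbage had 2 libraries against 3 and fewer counted reads in all, so these numbers do not compare levels. The rule also held each of these counts to at most 2 per library. A count of 0 allowed a level of up to 0.344 CPM over cabbage, 0.147 CPM over TO1000 and 0.103 CPM over both, so at this depth a level below these values would not have been detected.

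For the 44 members at 0 outside kale, kale exceeded the others at least 20.6-fold for the lowest and at least 809.8-fold for Bo6g040070, with a median lower bound of 57.1. For the 192 members with reads outside kale, the ratio of the kale level to the level over the 5 other libraries ran from 11.0 to 1569.4, with a median of 77.1. The smallest lower end of a 95% exact (Clopper-Pearson) counting interval of these ratios was 4.86, for Bo4g137040. These ratios describe what the limits selected.

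At the limit itself, 19 members had exactly 10 reads in their lowest kale library and 85 had 2 reads in some library outside kale. Bo4g137040 had 11, 10 and 11 reads in kale, 0 and 1 in cabbage and 0, 2 and 1 in TO1000, a kale level of 1.98 ± 0.582 CPM (SD, n = 3) and a ratio of 13.7 (95% interval 4.86 to 53.3). Bo2g149300 had 14, 11 and 10 reads in kale, 1 and 0 in cabbage and 1, 0 and 0 in TO1000, at 2.1 ± 0.256 CPM. Just outside the kale limit stood 26 genes with a lowest kale count of 9, such as Bo6g022350 with 34, 26 and 9 reads and Bo1g002450 with 26, 26 and 9. Just outside the other limit stood 60 genes with a highest count of 3 in cabbage or TO1000. They included genes with more kale reads than any member, Bo9g154850 with 1307, 663 and 553 reads in kale against 1, 1 and 3 in TO1000, and Bo7g111930 with 680, 873 and 457 against 0, 3 and 1, both with 0 reads in cabbage. A fixed limit of 2 counts therefore left out genes whose levels in kale and outside it were proportionally as far apart as those of the members.

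In the fit across all genes, 235 of the 236 members passed the filter on low counts, through the kale libraries in which the rule holds them high, and Bo4g137040 did not. All 235 were called higher in kale than in both other morphotypes, where the call was made for 6.56% of all 28126 tested genes (14.2% against TO1000 and 14.7% against cabbage). The rule used those counts, so nothing is read from these calls. The limit of 2 counts also bounds both sides of the comparison of cabbage with TO1000, which called 26.2% of all tested genes and 3 of the 235 members, so nothing is read from that count either. The 3 members, Bo1g139180, Bo2g116820 and Bo8g092210, whose calls were lost under some other settings, each had 3 reads in cabbage and 0 in TO1000. In kale they had 56, 37 and 33 reads, 14, 17 and 14 reads, and 26, 18 and 15 reads.

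A single member carries a name in the study. Bo9g130730, named REVOLUTA, is a homologue of an *Arabidopsis* class III homeodomain-leucine zipper transcription factor that helps to set the upper side of the leaf and to form meristems. It was among the lowest members, with 16, 11 and 10 reads in kale, 0 reads in cabbage and 0, 0 and 2 in TO1000. Its kale level was 2.19 ± 0.209 CPM (SD, n = 3), and the ratio to the other libraries was 31.7 (95% interval 8.18 to 271.5). The study chose the gene on these libraries, and reads from other copies of such a gene family could be shared or lost in mapping, so its count is uncertain in that respect.

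The members were spread over all 9 chromosomes of the C genome and the unplaced scaffolds, going by the number in each identifier. Chromosomes C1 and C2 held 32 members each, C3 held 28, C4 held 27, C6 held 24, C8 and C9 held 23 each, C7 held 18 and C5 held 15, and 14 lay on scaffolds. Since chromosomes differ in how many genes are in use, the members were also set against the 21893 genes with at least 10 reads in every kale library, of which 1.08% were members. Per 1000 such genes there were 10.8 members (95% Wilson interval 9.5 to 12.2) over all places. The rate was 16.5 (11.7 to 23.2) on C2, 15.1 (10.7 to 21.2) on C1, 13.1 (8.82 to 19.4) on C6 and 11.5 (7.93 to 16.7) on C4. It was 9.9 (6.61 to 14.8) on C8, 8.74 (5.83 to 13.1) on C9, 8.1 (5.13 to 12.8) on C7, 7.98 (5.52 to 11.5) on C3 and 6.26 (3.8 to 10.3) on C5. The intervals of all 9 chromosomes overlapped their neighbours in this order, and only the ends of the order, C2 and C1 against C5, and C2 against C3, had intervals that did not overlap. These were picked out from all pairs of chromosomes. The intervals treat genes as independent, although some members adjoin each other, and the differences between chromosomes were not tested.

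**Figure D3:**
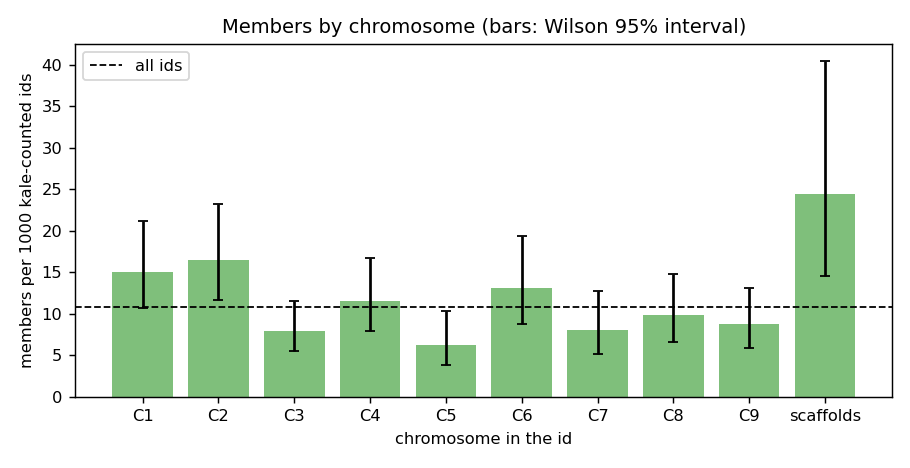
Bars give the number of members per 1000 genes with at least 10 reads in every kale library (y axis) for each chromosome in the identifier and for the unplaced scaffolds (x axis), and the dashed line marks 10.8, the rate over all places. The lines on the bars are 95% Wilson intervals, widest for the scaffolds (14.6 to 40.5), whose bar stands at 24.4.

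The scaffolds stood highest in that plot, with 14 members among 574 genes counted in every kale library, or 24.4 per 1000 (14.6 to 40.5), and their interval lay above that of the whole list. They held 5.93% of the members, 7.53% of all Bo identifiers and 2.62% of the genes counted in kale, so the direction of the difference turned on which of the latter was the base. The 14 members lay on 13 scaffolds, and 5 of them were the only listed gene on theirs. Genes with the mirror pattern, counted in TO1000 at the same limits and not in kale or cabbage, numbered 228, of which 29 lay on scaffolds. A further 126 genes were counted in all cabbage and TO1000 libraries and not in kale, and 27 in cabbage alone, where only 2 libraries had to pass.

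The level in kale also varied from place to place, though within wide ranges. The median member stood at 6.92 CPM on C3, 6.87 on C1, 5.85 on C7, 5.72 on C4, 5.35 on C2, 4.39 on C6, 4.35 on C8, 4.14 on C9, 3.77 on C5 and 3.44 CPM on the scaffolds. C6 held the highest member, Bo6g040070, and C3, whose median was the highest, had no member above 18.7 CPM. Its top member, Bo3g137220, had 142, 102 and 76 reads in kale, 0 in cabbage and 1, 1 and 2 in TO1000. On C4 the top member was Bo4g094180 with 196, 108 and 101 reads in kale, at 23.5 ± 3.83 CPM (SD, n = 3), and on C9 it was Bo9g117650 with 178, 107 and 89 reads, at 21.6 ± 2.66 CPM. Members at 0 in all libraries outside kale occurred at every place, between 2 on C5 and on the scaffolds and 8 on C3.

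Along the chromosomes the members were scattered, with long stretches that held none, both between members and at chromosome ends. Between neighbouring members of a chromosome lay a median distance of 103 listed identifiers on C6 to 265 on C5. The longest stretch between members was on C7, from Bo7g052910 to Bo7g081320, with 1355 listed genes inside it. The first member of C5, Bo5g022290, was the 1437th of its 5851 listed genes, so a still longer stretch without a member lay at the start of that chromosome. On C3 the longest between members ran from Bo3g068070 to Bo3g101520 with 1265 genes and on C2 from Bo2g075270 to Bo2g108830 with 1078. These stretches were not devoid of genes in use, since 465, 478 and 298 of their genes had at least 10 reads in every kale library. That was 34.3%, 37.8% and 27.6% of the genes inside, slightly fewer than the 38.6%, 41.3% and 33.2% over the whole chromosomes.

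**Figure D4:**
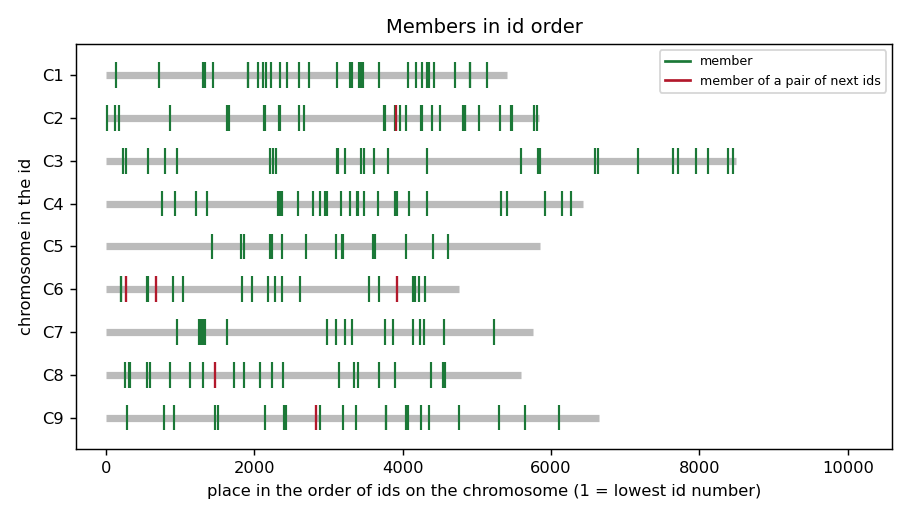
Each grey bar is a chromosome, drawn as the row of its listed identifiers in the order of their numbers (x axis, place in that order), with a green line for each member and a red line for the members of a pair of next identifiers. Members lie along all 9 chromosomes, 3 of the 6 pairs on chromosomes are on C6, and the longest stretches between members are on C7 and C3, while C5 has no member before place 1437.

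Order in the identifier was taken as order on the chromosome, and 98.4% of next listed identifiers were 10 apart in number. No gene coordinates were used, so distances are in listed genes and not in bases. By this order 14 members (5.93%) stood directly beside another member, as 7 separate pairs, and no run of 3 or more occurred. Members were 0.398% of all Bo identifiers and 1.08% of the genes with at least 10 reads in every kale library. A gene can have a neighbour on either side, so these shares are not on the same footing as the 5.93%. The difference was not tested. The number beside another changed with the limits, which also changed the length of the list, so the counts are not shares. It was 22 without kale replicate 3, 28 with at least 5 kale reads and 30 with at most 5 reads elsewhere. After thinning to the smallest library it was 8, and with no read allowed elsewhere it was 0. Among the 228 genes counted only in TO1000, 19 (8.33%) stood beside another of their kind, and among the 126 genes silent only in kale 4 (3.17%) did. Within 5 listed genes of another member were 26 members, and within 10 were 30.

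The pair with most reads was Bo6g015640 and Bo6g015650 on C6, with 1077 kale reads and 2 others. Bo6g015640 had 50, 76 and 35 reads in kale replicates 1 to 3, at 9.62 ± 3.55 CPM (SD, n = 3), and Bo6g015650 had 341, 360 and 215. Both were highest in kale replicate 2 when given in reads. The pair Bo6g112510 and Bo6g112520, also on C6, had 653 kale reads, of which Bo6g112510 had 26, 40 and 24, at 5.5 ± 1.81 CPM, and Bo6g112520 had 216, 147 and 200. Within it the genes did not follow each other across the kale libraries, as replicate 2 was the highest in reads for Bo6g112510 and the lowest for Bo6g112520. On a scaffold, Bo00613s180 had 111, 86 and 86 reads and Bo00613s190 had 126, 85 and 51, at 17.1 ± 3.02 and 14.9 ± 2.58 CPM. These neighbours had nearly equal levels, whereas Bo6g015640 and Bo6g015650, and likewise Bo6g112510 and Bo6g112520, differed several-fold in reads.

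The remaining pairs were lower. Bo8g050410 and Bo8g050420 had 346 kale reads together, Bo2g116360 and Bo2g116370 had 222, Bo9g072930 and Bo9g072940 had 187, and Bo6g029490 and Bo6g029500 had 96. Outside kale these pairs had between 1 and 4 reads each. A further 5 sets of neighbours had a single other gene between them. Among these were the high member Bo1g144080, whose neighbour Bo1g144060 had 94, 86 and 60 reads in kale, and Bo2g108850, whose neighbour Bo2g108830 had 33, 16 and 18. The uneven member Bo2g140520 was another. Its neighbour Bo2g140540 had 81, 26 and 15 reads, so both were highest in kale replicate 1, and the gene directly after that, Bo2g140550, is not a member but had 248, 146 and 148 reads in kale, 5 and 38 in cabbage and 0 in all of TO1000.

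The 236 members had 439 directly neighbouring genes that are not members themselves, and the rule used their counts only in that they missed its limits. Of these 197 passed the filter and were tested. In kale 28 of the 197 (14.2%, 95% Wilson interval 10.0 to 19.8) were called higher than in both cabbage and TO1000, with an adjusted p below 0.05 and more than 1 on the log2 scale in each comparison, against 6.56% of all tested genes. Lower in kale than in both were 9 (4.57%, 2.42 to 8.45), against 4.81%. Between cabbage and TO1000 48 were called (24.4%, 18.9 to 30.8), against 26.2%. Of these 23 were higher in cabbage and 25 lower, where 11.5% and 14.8% of all tested genes were. Without a filter on low counts the share higher in kale than in both was 7.96%, against 3.82% of all genes then tested. The neighbours were thus called higher in kale at a larger share than all tested genes, while the other shares lay close to the background. Neighbouring genes are not independent of each other, and the count was not put to a test of its own.

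Against TO1000 alone, 40 neighbours (20.3%) were higher in kale and 28 (14.2%) lower, where 14.2% and 13.5% of all tested genes were. Against cabbage alone, 43 (21.8%) were higher and 22 (11.2%) lower, where 14.7% and 11.1% were. These comparisons share the kale libraries. The median log2 fold change of the neighbours was -0.04 against TO1000 and 0.08 against cabbage, beside 0.0 and 0.06 over all tested genes, so the typical neighbour did not stand apart. The 228 genes counted only in TO1000 had the mirror pattern, as 26 of their 170 tested neighbours (15.3%) were higher in TO1000 than in both kale and cabbage, against 6.35% of all tested genes.

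**Figure D5:**
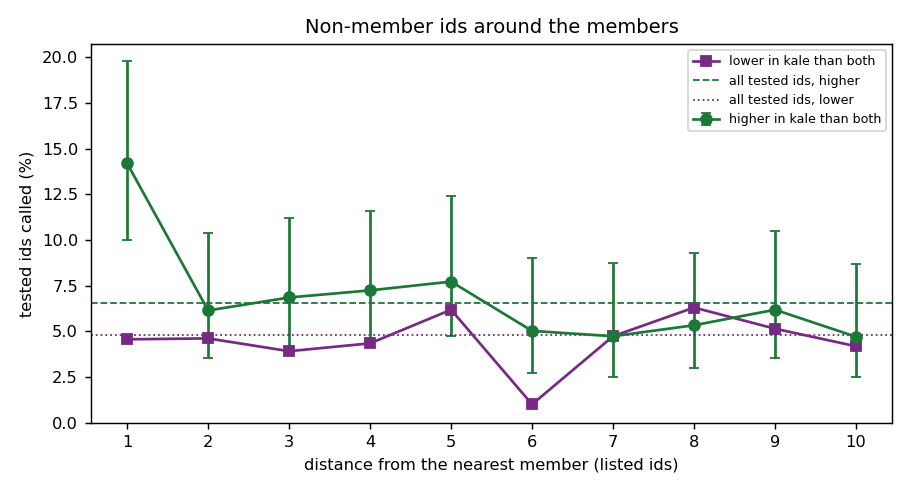
The y axis gives the percentage of tested non-member genes called higher (green, with 95% Wilson intervals) or lower (purple) in kale than in both other morphotypes, by their distance from the nearest member in listed genes (x axis), with dashed and dotted lines for the shares over all tested genes, 6.56% and 4.81%. The green line drops from 14.2% at distance 1 to 6.15% at distance 2 and stays between 4.71% and 7.73% after it.

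The share was highest among the directly neighbouring genes, although its interval overlapped those at distances of 2 to 5 and 9 genes, and the difference between distances was not tested. At a distance of 2 listed genes 6.15% (3.55 to 10.4) were higher in kale than in both, and from 3 to 10 genes away the share lay between 4.71% and 7.73%, with intervals that took in the 6.56% of all tested genes. The share lower in kale lay between 1.01% and 6.31% over all 10 distances. Cabbage and TO1000 differed in 21.6% to 28.4% of the genes at each distance.

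Of the 28 neighbours higher in kale, 5 had at most 2 reads in every library outside kale, as members do, but missed the limit of 10 reads in some kale library. A further 9 had at least 10 reads in every cabbage and TO1000 library, and 14 lay between these. The smaller of their 2 log2 fold changes had a median of 2.59 and began at 1.04. Each stood beside a different member, and 4 were also called between cabbage and TO1000. Among the better counted, Bo2g069600 had 1869, 866 and 1097 reads in kale, 106 and 304 in cabbage and 362, 610 and 506 in TO1000, with log2 fold changes of 1.65 against TO1000 and 2.32 against cabbage. Bo3g107720 had 466, 433 and 381 reads in kale, 5 and 52 in cabbage and 9, 12 and 6 in TO1000. Both, like Bo2g140550 above, were named after their values were seen.

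Some of the neighbours with the largest changes upward were close to being members. Bo4g085160, beside Bo4g085170, had 33, 13 and 7 reads in kale and 0 in all other libraries, with adjusted p-values by edgeR of 0.000251 against TO1000 and 0.0024 against cabbage. It was below the filter and untested without kale replicate 1 or without kale replicate 2. Bo2g139210, beside Bo2g139220, had 71, 100 and 218 reads in kale, 0 in cabbage and 1, 5 and 1 in TO1000, and its log2 fold change against TO1000 was 6.16 (SE 0.7, adjusted p = 7.36e-06). Its kale libraries were uneven, with replicate 3 the highest, whereas the member beside it had 57, 78 and 36 reads with replicate 2 the highest.

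Bo00924s030, beside Bo00924s040 on a scaffold, had 285, 232 and 133 reads in kale, 0 in cabbage and 12, 1 and 0 in TO1000, with a log2 fold change against TO1000 of 5.83 (SE 0.49, adjusted p = 2.83e-07 by edgeR). Its member neighbour was much lower in reads, with 33, 16 and 19 in kale, so here the gene that missed the limits carried more reads than the gene that met them. Bo6g077290 had 19, 13 and 9 reads in kale and a lone read outside it, in TO1000 replicate 3. Bo9g117660, beside Bo9g117650, had 18, 12 and 4 reads in kale and a lone read in cabbage replicate 2, and its call was not stable. The adjusted p against cabbage was 0.0151 by edgeR and 0.0504 by DESeq2, it was 0.0966 without cabbage replicate 1 and 0.0946 without cabbage replicate 2, and the gene was untested without kale replicate 1 or 2.

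Of the 9 neighbours lower in kale, 6 had at least 10 reads in every library outside kale, and 2 had at most 2 reads in every kale library. Bo6g116630, beside the member Bo6g116620 (59, 35 and 45 reads in kale), had 0 reads in all kale libraries, 7 and 10 in cabbage and 10, 10 and 9 in TO1000. Here adjoining genes had opposite patterns, each at or near 0 where the other was counted. Bo9g123580, beside Bo9g123590 (27, 17 and 16 reads in kale), likewise had 0 reads in kale, with 3 and 2 in cabbage and 18, 18 and 28 in TO1000. Against cabbage it was no longer called when cabbage replicate 1 was left out (adjusted p = 0.0977 by edgeR) or kale replicate 1 (0.0501).

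The 3 others of the 5 neighbours with the largest changes downward were on C8, and called neighbours on other chromosomes, such as Bo3g047040 on C3 (-1.77 against TO1000 and -1.65 against cabbage), came close to them. Bo8g068470 had 14, 11 and 4 reads in kale, 32 and 83 in cabbage and 40, 65 and 61 in TO1000, with log2 fold changes of -2.25 (SE 0.31, adjusted p = 3.95e-05 by edgeR) against TO1000 and -2.92 (SE 0.34, 5.35e-06) against cabbage. Bo8g030400 had 14, 3 and 4 reads in kale, 33 and 94 in cabbage and 33, 29 and 24 in TO1000, with changes of -1.79 (SE 0.4) and -3.52 (SE 0.4). Bo8g011050, beside the high member Bo8g011060, had 20, 6 and 10 reads in kale, 18 and 44 in cabbage and 79, 100 and 107 in TO1000, with changes of -2.72 (SE 0.29) and -1.73 (SE 0.35). All 3 genes kept some reads in every kale library. Whether a member and its neighbour overlap, and whether reads were assigned by strand, is not given in the sources used here, so reads of overlapping or antisense neighbours cannot be told apart.

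The neighbours were also set against all Bo genes by their counts outside kale, without a test. Of the 439 neighbours 124 (28.2%) had at least 10 reads in all 5 cabbage and TO1000 libraries, against 31.6% of all Bo genes, and 37 (8.43%) were at 0 in all 8 libraries, against 10.2%. Of the 227 members with a listed gene on either side, 18 (7.93%) had both neighbours so counted and 121 (53.3%) had neither. Over the 55934 Bo genes with a listed gene on either side these shares were 12.9% and 46.8%.

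Several members lay within 5 listed genes of a gene that the study names, all of which the study picked with these libraries in view, so their changes are not independent evidence. Bo4g042400, with 44, 23 and 33 reads in kale and 0 in all other libraries, adjoined Bo4g042390, named SPL3, whose *Arabidopsis* homologue is a transcription factor that promotes the passage from juvenile to adult growth and to flowering. The level of the member was 6.02 ± 1.88 CPM in kale (SD, n = 3), at least 57.1-fold above the others. SPL3 ran the other way, with 30, 24 and 23 reads in kale, 38 and 79 in cabbage and 114, 152 and 142 in TO1000. Its levels were 4.64 ± 0.747 CPM in kale, 13.5 ± 0.365 in cabbage (n = 2) and 19.9 ± 1.68 in TO1000, without overlap. It fell by 2.12 on the log2 scale against TO1000 (SE 0.21, adjusted p = 1.24e-06 by edgeR) and by 1.55 against cabbage (SE 0.25, 0.000126).

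Bo4g122970 had 28, 15 and 12 reads in kale and 0 in all other libraries, at 3.14 ± 0.624 CPM (SD, n = 3). It adjoined Bo4g122960, named GRF4, a growth-regulating factor of a family that in *Arabidopsis* promotes cell proliferation in leaves. GRF4 had 20, 15 and 12 reads in kale, 13 and 35 in cabbage and 64, 59 and 39 in TO1000. It fell by 1.52 against TO1000 (SE 0.3, adjusted p = 0.000853 by edgeR), and its change against cabbage, -0.96 (SE 0.36, adjusted p = 0.0427), did not pass the fold threshold. Beside both SPL3 and GRF4, then, stood a member with reads in kale alone, while the named gene had fewer CPM in kale than in TO1000.

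The others were farther away. Bo2g156140 had 128, 61 and 71 reads in kale, 0 and 2 in cabbage and 0, 1 and 0 in TO1000, and lay 5 genes from Bo2g156090, named FER3 after a ferritin, a protein that stores iron. FER3 had 67, 25 and 22 reads in kale, 16 and 41 in cabbage and 2, 0 and 0 in TO1000, so it was counted in cabbage at the level of kale (log2 fold change 0.0, SE 0.42, adjusted p = 0.997 by edgeR), where the member was near 0. Bo4g195360 had 28, 40 and 51 reads in kale, or 7.74 ± 4.2 CPM (SD, n = 3), and 2 reads outside it, both in TO1000 replicate 2. It lay 5 genes from Bo4g195410, named YAB1, of the YABBY family that marks the lower side of leaves in *Arabidopsis*, which had 184, 145 and 57 reads in kale, 162 and 383 in cabbage and 302, 369 and 335 in TO1000. YAB1 fell by 1.16 on the log2 scale against TO1000 (adjusted p = 0.000304 by edgeR), which became -0.96 without kale replicate 3 and then missed the fold threshold, and by 1.49 against cabbage.

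Bo6g116860 had 27, 10 and 16 reads in kale, 1 and 0 in cabbage and 0, 1 and 2 in TO1000, at 3.11 ± 1.14 CPM (SD, n = 3). It lay 4 listed genes from Bo6g117890, named CML26 after a calmodulin-like protein of calcium signalling. CML26 had 28, 22 and 14 reads in kale, 63 and 116 in cabbage and 74, 90 and 85 in TO1000, and fell by 1.7 against TO1000 (SE 0.22, adjusted p = 1.93e-05 by edgeR) and by 2.48 against cabbage (SE 0.24, 7.68e-07). Of these 5 named genes near members, SPL3, YAB1 and CML26 were called lower in kale than in both other morphotypes. GRF4 was called lower against TO1000, and its decrease against cabbage missed only the fold threshold. FER3 was higher than in TO1000 alone.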

How the data were processed

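Counts per gene were used from 8 RNA sequencing libraries, assigned to morphotypes by their titles. The deposited values are raw counts, whole numbers of reads per gene, made by the authors without normalization. Per the labels, polyadenylated RNA was made into cDNA without DNase treatment amplified by PCR and normalized as cDNA, and the study's methods name trimming with cutadapt 2.4 and mapping with STAR to the TO1000 genome. Reads from a kale gene that differs from TO1000 may be lost in that mapping. The strand setting of the counts is not given in the sources used here.

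Members were found by the stated count limits, and CPM was computed on library sizes scaled by TMM (factors 0.868 to 1.2). Chromosome and order were read from the identifiers. Morphotypes were compared with edgeR 4.0.16 under R 4.3.3. Genes passed filterByExpr (minimum count 10, minimum total 15), and the 8 libraries entered a single quasi-likelihood model that held nothing but morphotype. The 3 comparisons were tested two-sided on 28126 genes with Benjamini-Hochberg adjustment over all of them together, and a gene was called at an adjusted p under 0.05 and a log2 fold change beyond 1. Each SE is the log2 fold change over the root of its F statistic. The edgeR fit was tested on simulated counts, which did not cover the member rule or the counts of neighbours.

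Named are the 10 members with the highest lowest kale CPM, the 3 with the largest ratio among kale libraries, the 3 pairs with most kale reads, the members and genes nearest each limit, the members within 5 listed genes of a gene named by the study, and the 5 neighbours with the largest changes in each direction. The member with the highest kale mean at some places and some neighbours were added after their values were seen. The members and lists were chosen with earlier results of these data known. Alternatives were other count limits, thinning to the smallest library, a proportional limit, no count filter, upper-quartile or RLE factors, DESeq2 1.42.0, adjustment within each comparison, no fold threshold, wider windows, a replicate block, and leaving out each library. The 1361 identifiers that do not start with Bo were left out of the members.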

Additional observations from a re-analysis of the deposited data

Results flagged for a closer look

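The rule took only identifiers starting with Bo. Among the 1361 other identifiers 2 met the same count limits and lay outside the comparisons above. ENSRNA049448584 had 25, 14 and 41 reads in kale replicates 1 to 3, 80 in all, with 1 and 0 in cabbage and 0, 1 and 0 in TO1000. ENSRNA049454548 had 13, 22 and 63 reads in kale, 98 in all, with 0 in cabbage and 0, 1 and 0 in TO1000. Both were highest in kale replicate 3, the smallest kale library, whereas most members had their fewest reads there.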

How the results depend on the processing

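The number of members followed the limits. It was 466 with at least 5 reads in every kale library, 121 with at least 20, 44 with 0 reads elsewhere, 430 with at most 5 elsewhere and 63 with every other library at no more than 1% of the kale level, of which 55 are members here. Thinned to the smallest library it was 179, of which 128 are members here, and leaving out each library in turn it ran from 238 to 311. The number of members beside another was 14 of 236, and it followed the length of the list in part. It was 28 of the 466 with at least 5 kale reads, 30 of the 430 with at most 5 elsewhere and 8 of the 179 after thinning. Within 5 listed genes it was 26, and it was 0 both with 0 reads elsewhere and with the proportional limit. Leaving out each library it ran from 14 to 22, the highest without kale replicate 3. The share of neighbours higher in kale than in both others was 7.96% without a count filter (3.82% of all tested genes), 8.43% within 5 genes and 6.83% within 10. Leaving out each library it ran from 9.9% without kale replicate 2 (6.1% of all tested genes) to 15.0%, and with DESeq2 it was 12.2% (5.74%). The share differing between cabbage and TO1000 was 14.7% without a filter (15.7% of all) and 36.0% without a fold threshold (38.4%), and leaving out each library it ran from 14.9% without cabbage replicate 2 (16.6%) to 25.7%. The cause of these shifts was not tested.

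Replicate numbers were not taken as pairs. Correlations were taken on log2 CPM less the mean of its morphotype, gene by gene. They thus compare departures of replicates from that mean and not whole profiles. Those of same-numbered libraries lay between -0.115 and 0.196, and those of differently numbered libraries between -0.174 and 0.174. With 2 cabbage libraries such departures mirror each other, so the values of cabbage replicate 2 repeat those of replicate 1 with the sign reversed. The highest correlation, 0.196, was that of kale replicate 3 with TO1000 replicate 3. With a replicate block 14.2% of neighbours were higher in kale than in both and 21.3% differed between cabbage and TO1000. No named gene that was called changed sign, but some calls were lost. Of 15 alternatives, the call of Bo2g116820 between cabbage and TO1000 was lost in 14. That of Bo8g092210 was lost in 9 and that of Bo1g139180 in 5. Depth makes the limit of 2 reads loosest in cabbage replicate 1, where 2 reads stand for the highest CPM.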
